A study of Mus musculus with 12 samples.

Results

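The genes described here carry calcium and electrical signals in heart muscle. They are Ryr2, Slc8a1, Atp2a2, Pln, Casq2, Tecrl, Cacna1c, Hcn4, Gja5 and Gja1, 10 of the 19938 genes that an array feature with a single symbol measured. Each was represented by its feature with the highest mean, and 9 of the 10 had only 1 such feature. They were followed in mouse embryonic stem cells (ESCs) and in embryoid bodies (EBs), which are aggregates of differentiating ESCs. The question was how their levels differ when HP1α (HP1αKO, gene Cbx5) or HP1β (HP1βKO, gene Cbx1) is missing. Both are heterochromatin proteins that bind methylated histone H3.

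RNA of 6 groups was hybridised to 12 arrays, 2 per group, each pair labelled as biological replicates 1 and 2. The groups were EB HP1βKO, EB HP1αKO and EB WT, taken at day 7 of suspension culture without leukaemia inhibitory factor, and ESC HP1βKO, ESC HP1αKO and ESC WT, grown over feeder fibroblasts and sorted for the surface antigen SSEA1. No group received a treatment. According to the labels both knockouts are of the line R1 and WT is of the line HM1, whereas the study's methods call HM1 a littermate control. Genotype and line therefore cannot be told apart. An EB is a mixture in which only some cells become heart muscle, and in such bulk RNA fewer cells of a type and less RNA per cell cannot be told apart.

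In a heart muscle cell, the L-type channel encoded by Cacna1c admits calcium at each beat, and this opens the ryanodine receptor Ryr2 of the sarcoplasmic reticulum, which releases the stored calcium. The pump Atp2a2 (SERCA2), held back by phospholamban (Pln), returns calcium to the store, where calsequestrin (Casq2) binds it, and the sodium-calcium exchanger Slc8a1 moves the rest out of the cell. Hcn4 carries the pacemaker current, and the connexins Gja5 and Gja1 build the gap junctions through which the beat spreads. Tecrl is a membrane protein of the endoplasmic reticulum whose loss in humans causes an inherited arrhythmia related to stress.

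Before the members are read, 2 libraries need naming. In the library labelled HP1αKO 2 of the ESCs the level of Cbx5 was as high as 10, and in that labelled WT 2 as low as 8.29, so both went against their genotype labels. Cbx1 was low in every HP1βKO library, and the EB HP1αKO libraries had less Cbx5 (9.20 and 9.21) than EB WT (10.36 and 10.40). Counts of called members are therefore also given without these 2, called here the 2 discordant libraries. ESC WT and ESC HP1αKO then hold 1 library each, which is assumed to vary like those of the other groups. Replicates differed more in ESCs, with an SD over genes of 0.39 to 0.57 for replicate 1 minus replicate 2, than in EBs, with 0.13 to 0.20. The small number of arrays limits the precision. Values are deposited log2 signals, differences are in log2 units ± the standard error of limma (n = 2 arrays per group), and p-values are two-sided and adjusted over all genes tested. The labels do not say that replicates were separate cultures, so p-values measure the spread between these libraries, which may be technical. A signal of 45 (log2 5.49) served as a floor, under which signals are close to background, and 10880 genes above it on at least 1 array were tested.

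Of the 10 members, 7 were tested. Atp2a2 and Gja1 lay above the floor on all 12 arrays, Slc8a1 on 4, Ryr2 on 3, and Gja5, Hcn4 and Tecrl on 2 each. For Gja5, Hcn4 and Tecrl these were the EB HP1αKO arrays alone, so these genes were tested only because of the group in which they were highest, and their calls against that group are not read as a count. Where a group lay under the floor on both arrays, the fold is given as at least the ratio of the brighter group's mean to the floor, and no fold is given where that ratio is under 1. The log2 differences are those measured. Pln, Casq2 and Cacna1c stayed under the floor on every array. The plot of all members by array shows these levels.

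**Figure D1:**
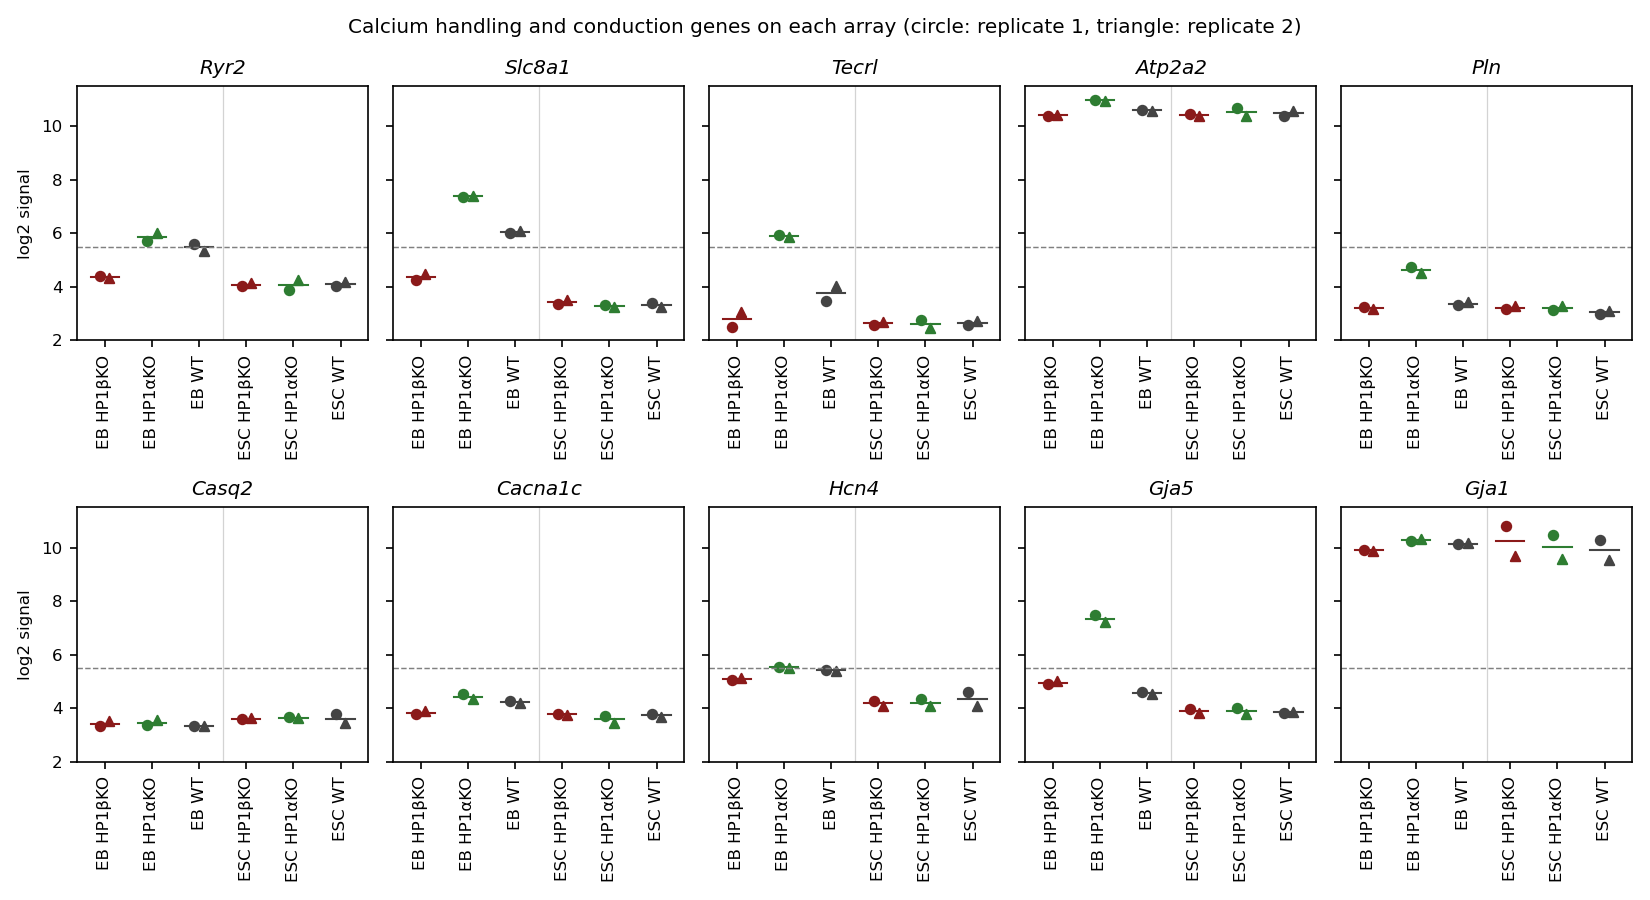
Deposited log2 signal (vertical axis) of the 10 genes on each of the 12 arrays, by group. Circles are replicate 1, triangles replicate 2, short lines group means and the dashed line the floor of 5.49. Slc8a1 reads 7.37 and 7.41 in EB HP1αKO, 4.25 and 4.47 in EB HP1βKO and 6.03 and 6.08 in EB WT, whereas Atp2a2 stays between 10.38 and 10.99 on all arrays.

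The promoters of Slc8a1, Tecrl, Gja5 and Ryr2 are shown because these 4 members were the ones called between the EB knockouts. Each run covers 250 bases before to 50 after the RefSeq start (GRCm38.p6), from chr17:81738338-81738637 (minus strand) for Slc8a1, chr5:83355146-83355445 (minus strand) for Tecrl, chr3:97032152-97032451 (plus strand) for Gja5 and chr13:12106896-12107195 (minus strand) for Ryr2. Capitals mark matches, on either strand, to the GATA motif AGATAA or to the MEF2 motif.
Slc8a1: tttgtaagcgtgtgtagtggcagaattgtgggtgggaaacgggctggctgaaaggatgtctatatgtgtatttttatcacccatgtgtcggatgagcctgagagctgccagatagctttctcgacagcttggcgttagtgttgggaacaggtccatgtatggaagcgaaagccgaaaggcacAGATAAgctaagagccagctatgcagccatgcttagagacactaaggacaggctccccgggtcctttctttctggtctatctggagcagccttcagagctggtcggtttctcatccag
Tecrl: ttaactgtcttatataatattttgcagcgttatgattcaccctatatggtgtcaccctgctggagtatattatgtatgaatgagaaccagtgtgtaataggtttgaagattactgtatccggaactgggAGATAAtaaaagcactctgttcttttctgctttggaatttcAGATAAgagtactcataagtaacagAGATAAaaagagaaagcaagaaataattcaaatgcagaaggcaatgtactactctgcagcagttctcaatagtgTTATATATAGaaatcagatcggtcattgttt
Gja5: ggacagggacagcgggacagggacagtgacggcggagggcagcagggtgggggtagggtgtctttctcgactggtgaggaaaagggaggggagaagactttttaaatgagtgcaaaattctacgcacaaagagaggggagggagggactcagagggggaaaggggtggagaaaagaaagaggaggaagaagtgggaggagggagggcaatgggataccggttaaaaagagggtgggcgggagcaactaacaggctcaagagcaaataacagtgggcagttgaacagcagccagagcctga
Ryr2: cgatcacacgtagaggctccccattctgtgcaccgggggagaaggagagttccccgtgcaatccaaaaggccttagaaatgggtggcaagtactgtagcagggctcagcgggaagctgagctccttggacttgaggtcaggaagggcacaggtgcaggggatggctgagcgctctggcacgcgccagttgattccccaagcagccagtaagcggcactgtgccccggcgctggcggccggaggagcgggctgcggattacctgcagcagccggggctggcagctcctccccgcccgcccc
AGATAA was found once in the Slc8a1 promoter, with its first base at position -68 from the start, and at positions -121, -80 and -55 in the Tecrl promoter. The MEF2 motif was found in the Tecrl promoter with its first base at position 20 after the start. Neither motif occurs in the Gja5 or Ryr2 window. Of 32851 mouse promoters of this length, 11.2% held AGATAA and 3.19% the MEF2 motif on either strand. Promoter sequences were at hand for 9 of the 10 members, all but Atp2a2. A member was counted once if any of its windows held the motif, and Cacna1c had 3 windows, whereas the shares are over single windows. AGATAA was found in 4 of these 9 (Gja1, Pln, Slc8a1 and Tecrl), the MEF2 motif in 2 (Casq2 and Tecrl), and the TATA box TATAAA in 1 (Pln), against 13.6% of all promoters. The T-box motif GGTGTGA (3.98% of all promoters), the MCAT motif CATTCC (14.7%) and the CArG box (1.63%) were found in none of the 9. The E-box CANNTG was found in 8 of 9, against 72.3% of all promoters. No match overlapped another in the promoters printed. The GC content was 34.3% in the Tecrl window, 50.7% in Slc8a1, 55.7% in Gja5 and 65.3% in Ryr2, with a median of 52.7% over all promoters.

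Ryr2, Slc8a1, Atp2a2 and Gja1 were above the floor on an array outside EB HP1αKO as well, and in these 4 the EB means ran in the order HP1αKO, WT, HP1βKO. Of the 10793 genes above the floor on such an array, 22.3% had that order. The order in Gja5, Hcn4 and Tecrl is not read as a count because of the way they entered the test, nor is that of Pln, Casq2 and Cacna1c, which stayed under the floor. Both knockouts are set against the same EB WT arrays, so their differences from WT are not independent of each other.

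The first question was which members differ in EBs without HP1β from those in WT EBs. The exchanger Slc8a1 fell by 1.69 log2 units (at least 1.48-fold) and the release channel Ryr2 fell by 1.09, whereas Atp2a2, Gja1, Hcn4, Gja5 and Tecrl did not pass the test. Thus 2 of the 7 tested members were called, both lower, when 3.24% of all genes tested were called and 1.62% were lower. Without the 2 discordant libraries 3 were called (Ryr2, Slc8a1 and Tecrl), when 8.93% of genes were. Over all 10 members, 3 of them under the floor throughout, the median difference was -0.28, and over all 19938 genes it was 0.03.

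The same question was put to EBs without HP1α. Slc8a1 rose 2.52-fold, Gja5 at least 3.63-fold and Tecrl at least 1.32-fold, and Ryr2, Atp2a2, Gja1 and Hcn4 did not pass. Gja5 and Tecrl had entered the test through the EB HP1αKO arrays alone. Of the 4 members above the floor on other arrays too, 1 was called (Slc8a1), when 1.24% of genes tested were called and 0.763% were higher. Without the 2 discordant libraries, when 4.11% of genes were called, the called members were again Gja5, Slc8a1 and Tecrl. The median over all 10 members was 0.39, and over all genes it was 0.01. The plot of both sets of differences shows each member.

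**Figure D2:**
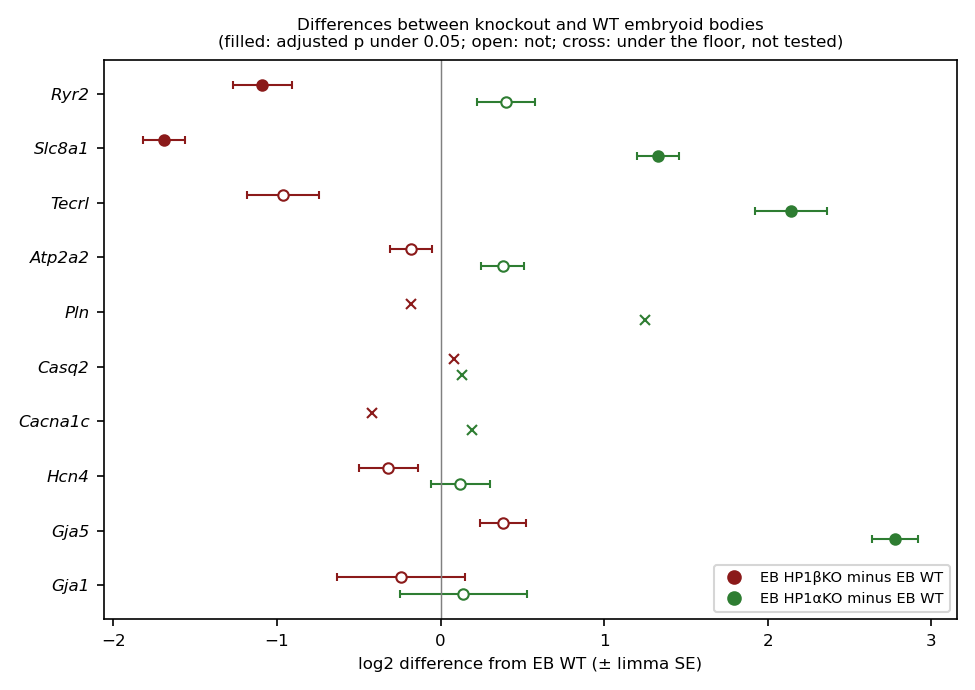
Log2 difference from EB WT (horizontal axis) of each member in EB HP1βKO (dark red) and EB HP1αKO (green), with bars for limma's standard error. Filled points passed an adjusted p of 0.05, open points did not and crosses were not tested; Slc8a1 lies at -1.69 and 1.33, and Gja5 at 0.38 and 2.78.

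The knockouts were also set against each other, a comparison in which both groups carry the R1 label. EB HP1βKO was lower than EB HP1αKO in Slc8a1 (at least 3.72-fold), Gja5 (at least 3.63-fold), Tecrl (at least 1.32-fold) and Ryr2 (at least 1.30-fold), since all 4 lay under the floor in HP1βKO. Of the 4 members above the floor on arrays outside EB HP1αKO, 2 were called (Slc8a1 and Ryr2), when 3.73% of genes were called and 2.45% were lower. Without the 2 discordant libraries Atp2a2 (limma adjusted p = 0.00892) and Hcn4 (limma adjusted p = 0.0365) were called too, when 9.49% of genes were. Hcn4 was tested only through the EB HP1αKO arrays, so its call is not read against that share. The median over all 10 members was -1.02, against 0.03 over all genes.

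Slc8a1, which extrudes calcium in exchange for sodium, read 4.25 and 4.47 in EB HP1βKO, 7.37 and 7.41 in EB HP1αKO, and 6.03 and 6.08 in EB WT. The 3 groups did not overlap, and HP1βKO lay under the floor. The difference from EB WT was -1.69 ± 0.13 in HP1βKO (limma adjusted p = 0.000132) and 1.33 ± 0.13 in HP1αKO (limma adjusted p = 0.00125), and HP1βKO minus HP1αKO was -3.03 ± 0.13 (limma adjusted p = 4.85e-06). A second feature of the gene was lower on every array and under the floor on all of them. It read 3.18 and 2.78 in EB HP1βKO, 4.74 and 4.59 in EB HP1αKO, and 3.57 and 3.89 in EB WT, in the same order. All 3 calls for Slc8a1 held in each of the 12 fits that left out 1 library.

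Ryr2, the calcium release channel, read 4.42 and 4.34 in EB HP1βKO, 5.71 and 6.03 in EB HP1αKO, and 5.60 and 5.34 in EB WT. HP1βKO lay below all other EB libraries, and HP1αKO and WT did not overlap but lay close together. The difference of HP1βKO from WT was -1.09 ± 0.18 (limma adjusted p = 0.0107), with both means under the floor, and its difference from HP1αKO was -1.49 ± 0.18 (limma adjusted p = 0.00132). HP1αKO minus WT was 0.40 ± 0.18 (95% interval 0.00 to 0.79, limma adjusted p = 0.597). The call against WT was lost when any of the 4 compared libraries was left out: the limma adjusted p was 0.0861 and 0.101 on leaving out EB HP1βKO 1 or 2, and 0.117 and 0.0543 on leaving out EB WT 1 or 2.

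Tecrl read 2.52 and 3.06 in EB HP1βKO, 5.92 and 5.86 in EB HP1αKO, and 3.48 and 4.02 in EB WT. Only HP1αKO rose above the floor, and the 3 groups did not overlap. HP1αKO minus WT was 2.14 ± 0.22 (limma adjusted p = 0.00196), and HP1βKO minus HP1αKO was -3.10 ± 0.22 (limma adjusted p = 5.09e-05). HP1βKO minus WT was -0.96 ± 0.22 (95% interval -1.46 to -0.47), which just missed the threshold (limma adjusted p = 0.0509) and passed it on the 6 EB arrays alone (limma adjusted p = 0.0187). There both means lay under the floor.

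Atp2a2, the pump that refills the calcium store, read 10.39 and 10.43 in EB HP1βKO, 10.99 and 10.96 in EB HP1αKO, and 10.62 and 10.56 in EB WT. The groups did not overlap, but they spanned less than 1 log2 unit. HP1βKO minus WT was -0.18 ± 0.13 (95% interval -0.48 to 0.12, limma adjusted p = 0.696), HP1αKO minus WT was 0.38 ± 0.13 (0.08 to 0.69, limma adjusted p = 0.393), and HP1βKO minus HP1αKO was -0.56 ± 0.13 (-0.86 to -0.26, limma adjusted p = 0.0577). On the 6 EB arrays alone, where the standard error was 0.08, the last 2 passed (limma adjusted p = 0.0231 and 0.00269).

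The partners of the pump and channel in the store were close to background. Pln, the inhibitor of the pump, read 3.24 and 3.16 in EB HP1βKO, 4.75 and 4.50 in EB HP1αKO, and 3.32 and 3.43 in EB WT. Only the HP1αKO libraries stood apart, by 1.25 from WT, and HP1βKO minus HP1αKO was -1.42. Pln was not tested with the floor. Without it, with all 19938 genes in the fit, the first difference had a limma adjusted p of 0.00143 when 0.878% of genes were called, and the second one of 0.000165 when 2.7% were called. Casq2, the calcium buffer of the store, read 3.32 and 3.51 in EB HP1βKO, 3.38 and 3.55 in EB HP1αKO, and 3.33 and 3.35 in EB WT. Its EB libraries all lay between 3.32 and 3.55, and its level was under the floor on all arrays.

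Cacna1c, the pore of the L-type channel, read 3.77 and 3.89 in EB HP1βKO, 4.52 and 4.36 in EB HP1αKO, and 4.28 and 4.22 in EB WT. All of these signals lay under the floor. Without a floor, HP1βKO minus HP1αKO was -0.61 (limma adjusted p = 0.0329), and the differences from WT, -0.42 in HP1βKO and 0.19 in HP1αKO, did not pass (limma adjusted p = 0.192 and 0.973).

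Among the conduction genes, the pacemaker channel gene Hcn4 read 5.04 and 5.15 in EB HP1βKO, 5.56 and 5.51 in EB HP1αKO, and 5.44 and 5.39 in EB WT. Its groups did not overlap but differed little, by -0.32 ± 0.18 between HP1βKO and WT (95% interval -0.71 to 0.08, limma adjusted p = 0.55) and by 0.12 ± 0.18 between HP1αKO and WT (-0.27 to 0.52, limma adjusted p = 0.996). On the 6 EB arrays alone HP1βKO was below WT (limma adjusted p = 0.0383) and below HP1αKO (-0.44, limma adjusted p = 0.0101).

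Gja5, the connexin 40 gene of atria, conduction fibres and arteries, read 4.89 and 5.00 in EB HP1βKO, 7.48 and 7.22 in EB HP1αKO, and 4.61 and 4.53 in EB WT. The HP1αKO libraries stood far above the rest, by 2.78 ± 0.14 over WT (limma adjusted p = 3.03e-05), and HP1βKO minus HP1αKO was -2.40 ± 0.14 (limma adjusted p = 1.42e-05). Gja5 was the only tested member whose HP1βKO difference from WT was above 0 (0.38 ± 0.14, 95% interval 0.06 to 0.69). This difference did not pass (limma adjusted p = 0.261), except on the 6 EB arrays alone (limma adjusted p = 0.0486), and both means lay under the floor.

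Gja1, the widely expressed connexin 43 gene, read 9.93 and 9.88 in EB HP1βKO, 10.26 and 10.31 in EB HP1αKO, and 10.13 and 10.16 in EB WT. Its EB groups did not overlap, but the shared standard error of 0.39 was wide because the ESC replicates differed. HP1βKO minus WT was -0.24 (95% interval -1.11 to 0.63, limma adjusted p = 0.899), and HP1αKO minus WT was 0.14 (-0.73 to 1.01, limma adjusted p = 0.999). On the 6 EB arrays alone, with a standard error of 0.08, HP1βKO was below HP1αKO (-0.38, limma adjusted p = 0.0156). Within those 6 arrays 5 of 7 members were called between HP1βKO and WT (18.8% of genes). Of the 4 members above the floor on arrays outside EB HP1αKO, Atp2a2 and Slc8a1 were called between HP1αKO and WT (12.1% of genes). Between the knockouts these 4 (Ryr2, Slc8a1, Atp2a2 and Gja1) were all called (19.9%).

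In ESCs, no member was called in any comparison between genotypes with limma, whether HP1βKO or HP1αKO was set against WT (0% of genes called in each) or HP1βKO against HP1αKO (0.00919%). None of the 7 tested members reached an unadjusted p of 0.05, while 638, 116 and 552 of all genes did in these comparisons. The count of members called was also 0 on the 6 ESC arrays alone (0% of genes in each comparison). It was 0 without the 2 discordant libraries, when 1.41% of genes were called in HP1βKO against WT, 0.625% in HP1αKO against WT and 0.395% between the knockouts. By the 1.5-fold rule of the study's methods it was 0 as well, with 1.52%, 0.0802% and 1.71% of genes called in the same order. All members but Atp2a2 and Gja1 lay under the floor on all 6 ESC arrays. The highest of these was Hcn4 at 4.61 in ESC WT 1, and Slc8a1 lay between 3.24 and 3.50 and Tecrl between 2.47 and 2.75. Atp2a2 lay between 10.38 and 10.67. Gja1 read 10.81 and 9.70 in ESC HP1βKO, 10.46 and 9.58 in ESC HP1αKO, and 10.30 and 9.55 in ESC WT, so it was higher in library 1 of each group. Of 10 fibroblast markers, 9 were also higher in library 1 in ESC HP1βKO, 8 in ESC HP1αKO and 9 in ESC WT, with median differences of 0.47, 0.95 and 2.06. The brightest of them, the fibronectin gene Fn1, was higher in library 2 of each group, and the summed signal of the list in libraries 1 and 2 was 1519 and 1537 in ESC HP1βKO, 2287 and 2050 in ESC HP1αKO, and 2644 and 1883 in ESC WT. Fibroblasts express Gja1 as well, and the part of feeder RNA in these Gja1 levels was not tested.

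Each EB group was then set against the ESCs of its genotype, to describe which members changed as the cells differentiated. In HP1βKO, Gja5 rose by 1.06 ± 0.14, Slc8a1 by 0.94 ± 0.13 and Hcn4 by 0.91 ± 0.18, all to levels under the floor, and Ryr2 (0.30 ± 0.18, limma adjusted p = 0.217) and Tecrl (0.15 ± 0.22, limma adjusted p = 0.614) did not pass. In HP1αKO, 6 members rose, Slc8a1 by 4.11 ± 0.13, Gja5 by 3.44 ± 0.14, Tecrl by 3.28 ± 0.22, Ryr2 by 1.80 ± 0.18, Hcn4 by 1.33 ± 0.18 and Atp2a2 by 0.45 ± 0.13. In WT, 5 rose, Slc8a1 by 2.72 ± 0.13, Ryr2 by 1.36 ± 0.18, Tecrl by 1.10 ± 0.22, Hcn4 by 1.06 ± 0.18 and Gja5 by 0.72 ± 0.14, and of these only Slc8a1 had an EB mean above the floor. The limma adjusted p of these rises lay between 0.000491 and 0.00367 in HP1βKO, between 1.31e-07 and 0.0254 in HP1αKO, and between 1.41e-06 and 0.00482 in WT. Gja1 was not called in any genotype.

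These counts of 3, 6 and 5 of 7 stand beside 37.1%, 41.6% and 36.2% of all genes called in HP1βKO, HP1αKO and WT, of which 22%, 25% and 22% of genes were higher. Gja5, Hcn4 and Tecrl, 3 of the 6 in HP1αKO, had entered the test through that EB group alone. All rises but that of Atp2a2 started from ESC levels under the floor, and as folds over the floor they were at least 3.72 for Slc8a1, 3.63 for Gja5, 1.32 for Tecrl, 1.30 for Ryr2 and 1.03 for Hcn4 in HP1αKO, and at least 1.48 for Slc8a1 in WT. Without the 2 discordant libraries 3, 5 and 5 members were called, all higher, when 53.2%, 49.3% and 38.9% of genes were called in HP1βKO, HP1αKO and WT, and Atp2a2 was the call lost. The median over the 10 members was 0.10 in HP1βKO, 1.38 in HP1αKO and 0.61 in WT, and over all genes it was 0.00, -0.03 and -0.03. Without the floor Pln (1.43, limma adjusted p = 3.82e-05) and Cacna1c (0.85, limma adjusted p = 0.00103) also passed in HP1αKO, where 24.8% of genes were called, and Cacna1c (0.50, limma adjusted p = 0.0195) in WT, where 20.7% were. The call of Atp2a2 in HP1αKO (limma adjusted p = 0.0254) was lost without ESC HP1αKO 2 (0.116), without EB HP1αKO 1 (0.127) and without EB HP1αKO 2 (0.107). It was also lost without the 2 discordant libraries (0.0602) and with arrays centred on their medians (0.119). The plot of the change during differentiation gives all members.

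**Figure D3:**
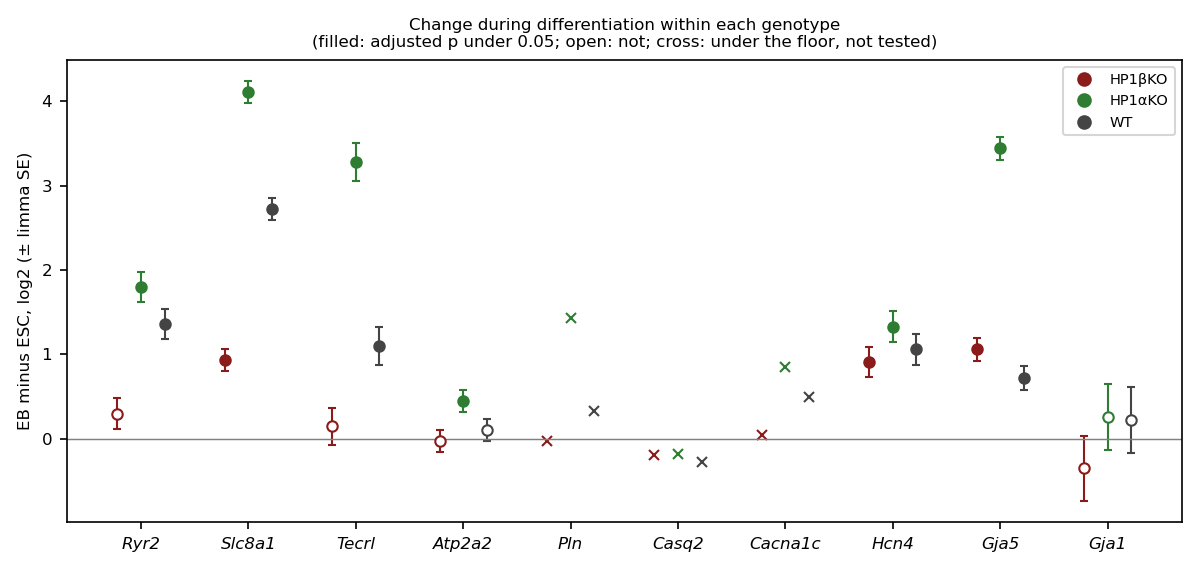
EB minus ESC log2 difference (vertical axis, bars for limma's standard error) of each member in HP1βKO (dark red), HP1αKO (green) and WT (grey). Filled points passed an adjusted p of 0.05, open points did not and crosses were not tested; Slc8a1 rose by 0.94, 4.11 and 2.72 in these genotypes and Tecrl by 3.28 and 1.10 in HP1αKO and WT.

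Whether a knockout effect itself differed between EBs and ESCs was tested as an interaction. For HP1βKO, Slc8a1 was called (-1.78 ± 0.18, limma adjusted p = 0.00239), 1 of 7 members when 1.3% of genes were. Ryr2 (-1.06 ± 0.25, limma adjusted p = 0.0859) did not pass with all libraries and passed without the 2 discordant libraries (-1.15, limma adjusted p = 0.0279), when 5.77% of genes were called. For HP1αKO, Gja5 (2.71 ± 0.20, limma adjusted p = 0.000853), Tecrl (2.18 ± 0.31, limma adjusted p = 0.0307) and Slc8a1 (1.39 ± 0.18, limma adjusted p = 0.0182) were called, when 0.23% of genes were. Gja5 and Tecrl lay under the floor on every array but those of EB HP1αKO, so for them this test largely repeats the difference between EB HP1αKO and EB WT. Without those 2 libraries, with 1 library left in each of 2 groups, Gja5 and Slc8a1 passed and Tecrl did not (limma adjusted p = 0.0536), when 1.48% of genes were called.

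Other genes of the same pathways came from lists that leave out the 10 members. Of 31 further calcium handling genes, 26 were on the array and 15 were tested. None of the 15 was called in EB HP1βKO or in EB HP1αKO against EB WT. Between the knockouts, the histidine-rich calcium binding protein gene Hrc of the sarcoplasmic reticulum was lower in EB HP1βKO (-1.21 ± 0.20, limma adjusted p = 0.00922). It read 4.46 and 4.45 in EB HP1βKO, and 5.86 and 5.47 in EB HP1αKO. Of these libraries only EB HP1αKO 1 lay above the floor of 5.49, so calls of Hrc that involve EB HP1αKO are not read as a count. The plasma membrane calcium pump gene Atp2b1 was higher in EB HP1βKO than in EB HP1αKO (0.57 ± 0.13, limma adjusted p = 0.0489). It read 10.13 and 10.12, against 9.54 and 9.59. Without the 2 discordant libraries, 1 of the 15 was called higher in EB HP1βKO than in EB WT (the T-type channel gene Cacna1h) and 1 in EB HP1αKO (Hrc). The medians over the 15 were -0.08 in EB HP1βKO and 0.06 in EB HP1αKO against EB WT.

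Of 25 further conduction and ion channel genes, 22 were on the array and 8 were tested. Kcnj5, a subunit of the acetylcholine-gated potassium channel of the atrium, was called in both knockouts, in opposite directions. It read 3.99 and 3.85 in EB HP1βKO, 5.79 and 5.72 in EB HP1αKO, and 4.63 and 4.74 in EB WT. Its differences from WT were -0.76 ± 0.15 in HP1βKO (limma adjusted p = 0.0234) and 1.07 ± 0.15 in HP1αKO (limma adjusted p = 0.00891). Among the EB groups Kcnj5 lay above the floor only in HP1αKO, so its calls against that group are not read as a count. Both groups lay under the floor in the difference of HP1βKO from WT, and both differences use the same WT arrays. Popdc2, a membrane protein of heart muscle needed for pacemaking in mice, read 6.91 and 6.53 in EB HP1βKO, 8.85 and 8.70 in EB HP1αKO, and 7.46 and 7.44 in EB WT. It rose in HP1αKO (1.33 ± 0.20, limma adjusted p = 0.0143). Kcnj5 was the only 1 of the 8 called lower in HP1βKO than in WT, when 1.62% of genes tested were lower. Besides Kcnj5, only Popdc2 was called higher in HP1αKO than in WT, when 0.763% were higher. Popdc2 (by -2.06) and the arterial connexin gene Gja4 (by -1.06) were lower in HP1βKO than in HP1αKO, when 2.45% of genes were lower. Kcnj5 was lower there too (by -1.84), but it is not read against that share. Popdc2 was also called lower in HP1βKO, and Gja4 higher in HP1αKO, against WT without the 2 discordant libraries. The plot of these lists shows every gene tested.

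**Figure D4:**
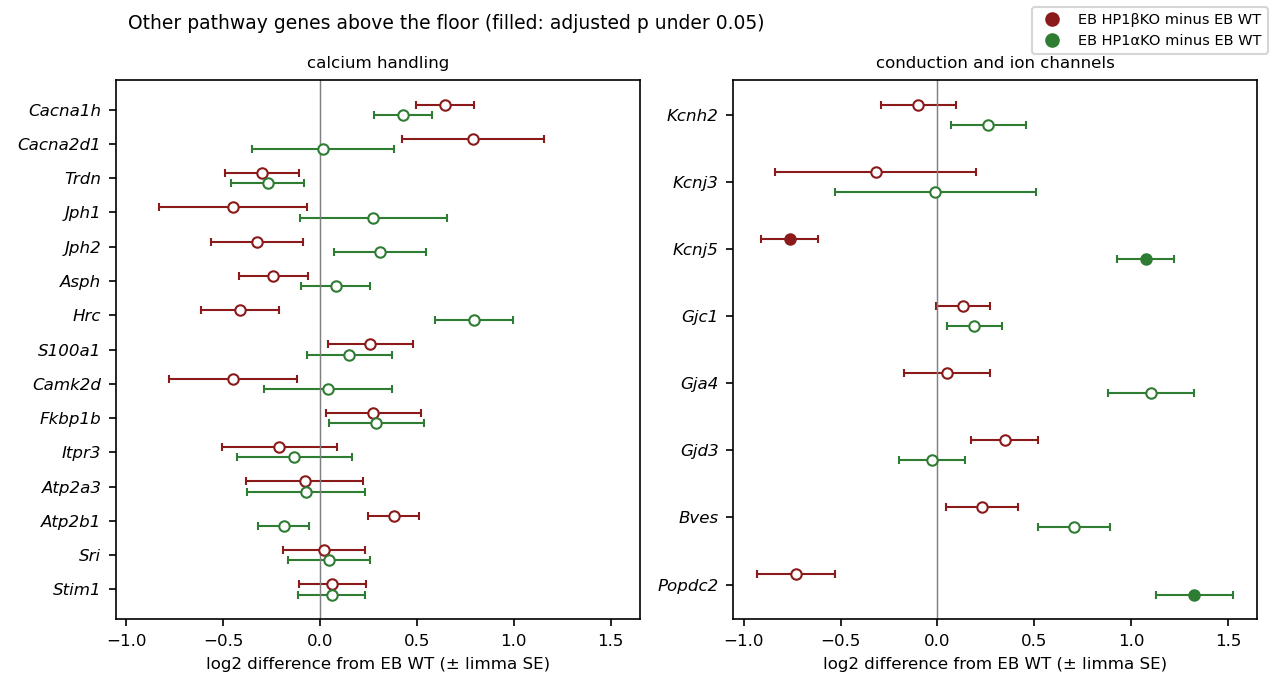
Log2 difference from EB WT (horizontal axis, bars for limma's standard error) of the 15 tested calcium handling genes (left) and the 8 tested conduction and ion channel genes (right) outside the 10 members, in EB HP1βKO (dark red) and EB HP1αKO (green). Filled points passed an adjusted p of 0.05; no calcium handling gene is filled, and Kcnj5 is filled at -0.76 and 1.07.

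During differentiation, 5 of the 15 calcium handling genes rose and 1 fell in HP1βKO, 9 rose and 1 fell in HP1αKO, and 7 rose in WT. Of all genes tested, 37.1%, 41.6% and 36.2% were called in HP1βKO, HP1αKO and WT, and 22%, 25% and 22% were higher. Sri, which encodes sorcin, a modulator of the ryanodine receptor, rose by 1.59 ± 0.21, 1.40 ± 0.21 and 1.17 ± 0.21 in HP1βKO, HP1αKO and WT. Of the 8 conduction genes, 4 rose and 1 fell in HP1βKO, 6 rose and 1 fell in HP1αKO, and 4 rose and 1 fell in WT. With the 2 discordant libraries left out, the calcium handling counts were 7 higher and 2 lower in HP1βKO, 10 and 1 in HP1αKO and 5 and 0 in WT, and the conduction counts 5 and 1, 6 and 1, and 4 and 1. The shares of all genes called without those libraries were also larger, as given above beside the members' counts. Popdc2 rose by 2.54 ± 0.20, 4.37 ± 0.20 and 2.97 ± 0.20 in HP1βKO, HP1αKO and WT, and the related gene Bves by 2.92 ± 0.19, 3.46 ± 0.19 and 2.81 ± 0.19.

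The heart muscle markers of the same EBs were read beside the members, most of which were not called in EB HP1βKO against EB WT. Of 16 cardiac markers, which are sarcomere genes and the natriuretic peptide gene Nppa, 15 were tested. In EB HP1βKO 11 of the 15 were lower than in EB WT and none was higher, with a median of -2.46, when 1.62% of genes tested were lower. In EB HP1αKO 7 were higher and none was lower, with a median of 1.06, when 0.763% of genes were higher. Of the 16, 7 lay under the floor on both arrays in EB HP1βKO, 3 in EB WT and 1 in EB HP1αKO. Some may therefore have been tested only through EB HP1αKO, so these 7 calls are not read against the share. The summed signal of the 16 was 1886 to 2307 in EB HP1βKO, 17244 to 17413 in EB HP1αKO and 8852 to 9198 in EB WT. Cardiac troponin T (Tnnt2) read 7.26 and 7.01 in EB HP1βKO, 11.03 and 10.90 in EB HP1αKO, and 9.89 and 9.79 in EB WT. How far the amount of heart muscle in the EBs accounts for the members' levels was not tested.

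Other cell types moved with the groups less uniformly. The summed signal of 10 endothelial markers was 1548 to 1706 in EB HP1βKO, 1916 to 1936 in EB HP1αKO and 1602 to 1770 in EB WT, with 1 of 10 called higher in HP1αKO and none called in HP1βKO. That of 8 smooth muscle markers was 3877 to 4075, 5311 to 5314 and 3982 to 4099 in the same order. Of the 6 tested, 1 was called lower in HP1βKO (Myocd, -2.15 ± 0.22, limma adjusted p = 0.000921) and none in HP1αKO. Fibroblast markers summed to 8306 to 8933 in EB HP1βKO, 6806 to 7201 in EB HP1αKO and 4545 to 4794 in EB WT, with 1 of 10 called higher in each knockout. Their median difference from EB WT was 0.84 in HP1βKO and 0.90 in HP1αKO, so the single calls understate how far the list moved. Skeletal muscle markers summed to 264 to 303, 292 to 302 and 262 to 315, none was called, and 5, 6 and 5 of the 8 lay under the floor. Pluripotency markers summed to 1846 to 2154 in EB HP1βKO, 1626 to 1692 in EB HP1αKO and 1296 to 1550 in EB WT. Of the 8, 3 were called higher in HP1βKO, and 1 was called higher and 2 were called lower in HP1αKO. The median difference of these markers from EB WT was 0.70 in HP1βKO and -1.02 in HP1αKO, so in HP1αKO sum and median went opposite ways. Neuronal markers summed to 188 to 204, 380 to 392 and 471 to 520, with 2 of 5 tested called lower in HP1βKO, and visceral endoderm markers to 1076 to 1495, 939 to 985 and 1608 to 1906, with 1 of 6 tested called higher and 3 called lower in HP1αKO. Of all genes tested, 3.24% were called in EB HP1βKO and 1.24% in EB HP1αKO against EB WT. The part of these cell types in the members' levels was not tested.

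The genes whose levels followed a member most closely were listed by Pearson's r over all 12 arrays, as a description across arrays that share their groups. For Ryr2 they were the atrial myosin light chain genes Myl7 (r = 0.986) and Myl4 (0.982), with Sphkap (0.984) between them. For Slc8a1 they were the M-band gene Myom1 (0.989), Gyg (0.989) and Shh (0.988), and for Tecrl the muscle ring-finger gene Trim55 (0.987), Plppr5 (0.986) and Vtn (0.983). Gja5 was followed by Ccl3 (0.988), Gimap6 (0.983) and Dlx5 (0.969), and Hcn4 by Spsb4 (0.989), St3gal6 (0.987) and Pcdhb22 (0.986). Atp2a2 was followed by Id4 (0.941), Hrc (0.934) and Edn1 (0.916), and Gja1 by Dnajb12 (0.940), Dusp10 (0.918) and Dusp4 (0.911). Over the 10 arrays other than the 2 discordant libraries, r of these 21 pairs lay between 0.862 and 0.991.

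Over the 6 EB arrays, where 3 genotypes of 2 arrays each make high values of r common, the closest to Slc8a1 were Large2 (0.998), Suclg2 (0.998) and the ventricular myosin light chain gene Myl3 (0.997). Ryr2 was followed there by Clip1 (0.997), Qk (0.997) and Rgma (0.993), Tecrl by Brcc3 (0.998), Tspyl1 (0.998) and Mageh1 (0.996), and Gja5 by Alkbh6 (0.998), Pdgfa (0.997) and Hopx (0.995). The first 3 for Atp2a2 were Col26a1 (0.999), Col18a1 (0.998) and Pygb (0.998), for Gja1 Vgll4 (0.998), Zfp41 (0.998) and Ccdc141 (0.998), and for Hcn4 Wdr3 (0.997), Dag1 (0.997) and Nat10 (0.994). Among the 21 pairs of tested members, r over these 6 arrays ran between 0.593 (Ryr2 and Gja5) and 0.982 (Slc8a1 and Gja1), with a median of 0.904. Over all 45 pairs of members it ran between 0.064 (Casq2 and Cacna1c) and 0.992 (Hcn4 and Cacna1c), and the 9 pairs with Casq2 lay between 0.064 and 0.474.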

How the data were processed

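RNA of 12 samples was measured on 1-colour arrays. The authors normalized the arrays with the robust multi-array average (RMA) in Expression Console (Affymetrix). The log2 signals they deposited were used unchanged. No version or genome build is given in the sources used here. Feature identifiers matched the annotation of the Mouse Gene 1.0 ST array, whereas the methods name an exon array. Of 35556 features, 21789 carried 1 gene symbol; of features that shared a symbol, the brightest on average represented the gene (19938 genes).

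Genes with a signal above 45 on at least 1 array (10880) were fitted with limma 3.58.1 in R 4.3.3, with a mean per group over all 12 arrays (6 residual degrees of freedom), empirical Bayes moderation and Benjamini-Hochberg adjustment within each of 11 comparisons (threshold 0.05, two-sided). The fit was tested on simulated data with known changes. There, comparisons between EB groups gave few false calls, whereas comparisons between ESC groups, whose replicates spread more than the shared estimate, gave more than the threshold allows. Alternatives were the 6 arrays of 1 state, no floor or a floor of 100, median centring, the mean of all features, array weights, replicate blocks, libraries left out and the methods' 1.5-fold rule. The members and gene lists were chosen with earlier results of these data known. Named genes are all members, called genes of the wider lists (at most 6 per comparison), markers, the targeted genes, and the 3 genes most correlated with each tested member (features with only a locus or clone name skipped). Motifs, and the lists and correlations without the 2 discordant libraries, were added after seeing the data. Promoters are from RefSeq (GRCm38.p6).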

Additional observations from a re-analysis of the deposited data

Results flagged for a closer look

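Results for 4 effects stood out because a knockout effect differed between EBs and ESCs by a test of the difference itself (the interaction in limma, adjusted over all genes tested). The HP1βKO effect on Slc8a1 was lower in EBs than in ESCs by -1.78 (adjusted p = 0.00239), and this passed in all 12 fits that left out 1 library. The HP1αKO effect was higher in EBs for Gja5 (2.71, adjusted p = 0.000853), which also passed in all 12, for Tecrl (2.18, adjusted p = 0.0307), which passed in 5 of 12, and for Slc8a1 (1.39, adjusted p = 0.0182), which passed in 7 of 12. The call for Slc8a1 in HP1αKO was lost without either EB HP1αKO library (0.143 and 0.144), without either EB WT library (0.141 and 0.105) and without ESC HP1αKO 2 (0.0619). That for Tecrl was lost without either EB HP1αKO library (0.172 and 0.144), EB WT 1 (0.141), ESC HP1αKO 2 (0.106), ESC WT 1 (0.0526) or either ESC HP1βKO library (0.0574 each). All of these genes lay under the floor in every ESC library, and Gja5 and Tecrl on every array but those of EB HP1αKO, so that for these 2 genes the test largely repeats the EB differences of 2.78 and 2.14 from WT. With 2 arrays per group, no group was large enough to test for a single outlying library.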

How the results depend on the processing

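Over 77 differences (7 tested members in 11 comparisons) and 1626 values under alternatives, 26 lost their call, 29 gained one, 1516 kept direction and side of the threshold, and 55 changed sign. None of the 55 was called in either fit, their differences with all libraries lay between -0.35 and 0.33, and 41 were between ESC genotypes. Gja1 in ESC HP1βKO minus ESC WT was 0.33, but -0.23 to 0.88 with 1 library left out and -0.05 without the 2 discordant libraries. In EB minus ESC, Gja1 was -0.16 in WT and -0.18 in HP1αKO without these libraries (0.22 and 0.26 with all). With 1 library left out it was -0.16 to 0.60 in WT, -0.18 to 0.70 in HP1αKO and -0.90 to 0.21 in HP1βKO, Atp2a2 was -0.06 to 0.03 and Tecrl -0.12 to 0.43 in HP1βKO, and Atp2a2 in WT was -0.02 with centred arrays. A group left with 1 library is assumed to vary like the others. Counts of members called moved by more than 1.5 times as follows, each with the share of all genes called. Between EB HP1βKO and EB WT, where 2 were called, it was 5 on the 6 EB arrays alone (18.8% of genes, against 3.24%) and 1 with a floor of 100 (2.64%), and it ranged from 1 to 3 when 1 library was left out (0.882% to 4.76%). Between the EB knockouts, where 4 were called, it was 7 on the 6 arrays (19.9%, against 3.73%) and 2 with a floor of 100 (2.92%). The counts between the knockouts include Gja5, Hcn4 or Tecrl, which were tested through EB HP1αKO alone. They describe the effect of the setting and are not read against the shares. Between EB WT and ESC WT, where 5 were called, it was 2 with a floor of 100 (39.4%, against 36.2%) and 2 by the methods' 1.5-fold rule (17.9%). That rule gave 0 for HP1βKO (18.5%; 3 with limma), and a floor of 100 gave 3 for HP1αKO (44.5%; 6 with the floor of 45), in EBs against ESCs. A higher floor leaves fewer members to test, and the cause of the other shifts was not tested.

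The HP1βKO interaction called 1 member (1.3% of genes), and 2 with a replicate block in the ESCs only (5.27%), 2 with a replicate block whose EB HP1βKO numbers were crossed (3.88%; chosen after seeing the data) and 2 (5.77%) without the libraries labelled ESC HP1αKO 2 and ESC WT 2, whose Cbx5 went against those labels. Leaving out 1 library gave 1 to 2 (0.496% to 3.98%). The HP1αKO interaction called 3 (0.23%), but 1 with array weights (0.119%) and 1 to 3 with 1 library left out (0.11% to 0.772%; 1 without EB WT 1, without either EB HP1αKO library or without ESC HP1αKO 2). Of the 3 members called in the HP1αKO interaction, Gja5 and Tecrl were tested through EB HP1αKO alone, so these counts are not read against the shares. Same-numbered libraries deviated together in ESCs (correlations of 0.401, 0.497 and 0.3) but not in EBs (0.112, -0.454 and -0.092), and with 2 numbers they share only a number. With the number as a block in each state, 3 members were called between EB HP1βKO and EB WT (4.65% of genes). Between EB HP1αKO and EB WT (1.75%) Slc8a1 was called, and so were Gja5 and Tecrl, which are not read as a count there.

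Most members lay near the floor, where signals compress and the size of a difference is uncertain. Centring the arrays moved the median EB minus ESC difference over tested genes in WT to -0.08, against 0.05, and the higher calls to 1928 of 4169, against 2391 of 3941.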
